A study of Homo sapiens with 12 samples.

Results

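The genes described here encode the 3 TGF-β ligands (TGFB1, TGFB2 and TGFB3), the latent TGF-β binding proteins that carry them (LTBP1, LTBP3 and LTBP4) and the cell surface proteins that hold them in their latent form (LRRC32, also called GARP, and NRROS, also called LRRC33). They are 8 of the 56269 genes of the count table and were chosen by name for these roles, with earlier results of these data known. RNA-seq was performed in HEYA8, a human ovarian cancer cell line cultured in RPMI-1640 with 10% FBS in the resting state, with no TGF-β added. Betaglycan (BG, gene TGFBR3) is a TGF-β co-receptor with 2 serines that carry glycosaminoglycan (GAG) chains. Of the 12 libraries, 3 are from cells with betaglycan S534A (named CS-BG in the study), 3 from cells with S545A (HS-BG), each with alanine at 1 of these serines, 3 from cells with ∆GAG-BG, with alanine at both, and 3 from cells with the control vector. In the paper's enzyme digestion S534A still carried both chondroitin sulfate (CS) and heparan sulfate (HS) chains. S545A lost its chains after heparinase III. The constructs were carried by a lentivirus that also encodes dTomato, and infected cells were sorted by dTomato. A single line per construct is described and HEYA8 keeps its own TGFBR3 gene, so differences between constructs and differences between sorted lines cannot be told apart. No library with full-length betaglycan was analysed here. The series calls the libraries of a group biological replicates, but separate cultures are not described, so p-values measure the spread between these libraries.

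TGF-β is made as a precursor whose propeptide, the latency-associated peptide, stays wrapped around the mature ligand after furin-type proteases have cut between them. Inside the cell this complex is joined by disulfide bonds to a carrier protein. LTBP1 and LTBP3 bind the latent forms of the ligands, LTBP4 binds latent TGF-β1 less efficiently, and LTBP2, a relative, does not bind latent TGF-β. The LTBPs place the complex on fibronectin and fibrillin fibers, whereas LRRC32 does so at the surface of regulatory T cells and platelets and NRROS at that of myeloid cells. Integrins that recognize an RGD motif in the propeptide release the ligand, which then meets its receptors, with betaglycan presenting it. In ovarian carcinoma TGF-β ligands come from tumor cells and from other cells around them.

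The sequences that separate the ligands in this process are shown because the ligand levels below turn on which of them the cells make. Each stretch is from the GRCh38 genome and the GENCODE 29 coding transcript, lies within the fifth of 7 coding exons, and is written 5′ to 3′ on the coding strand with 18 bases on either side of the part in capitals. The RGD codons are in capitals in the first pair. In TGFB1 (390 residues) they encode residues 244 to 246 at chr19:41342005-41342013 on the minus strand, and in TGFB3 (412 residues) residues 261 to 263 at chr14:75963453-75963461 on the minus strand. TGFB2 (414 residues) holds 0 RGD motifs.
TGFB1 RGD: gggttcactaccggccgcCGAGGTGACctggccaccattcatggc
TGFB3 RGD: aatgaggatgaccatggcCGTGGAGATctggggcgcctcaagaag
The next sequences have in capitals the 4 codons that end the propeptide, before the mature ligand. They lie at chr19:41341909-41341920 on the minus strand for TGFB1, at chr1:218436110-218436121 on the plus strand for TGFB2 and at chr14:75963342-75963353 on the minus strand for TGFB3.
TGFB1 cleavage: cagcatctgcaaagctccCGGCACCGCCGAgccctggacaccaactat
TGFB2 cleavage: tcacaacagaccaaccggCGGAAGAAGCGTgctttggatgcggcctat
TGFB3 cleavage: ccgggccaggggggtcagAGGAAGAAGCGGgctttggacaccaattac
The ligands are more alike after the cut than before it. The mature parts had 71.4% identical residues between TGFB1 and TGFB2, 76.8% between TGFB1 and TGFB3 and 79.5% between TGFB2 and TGFB3, against 34.2%, 34.0% and 46.4% in the propeptides, the part that the LTBPs, LRRC32 and NRROS bind.

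On GRCh38 the genes lie at chr19:41301587-41353911 (TGFB1, minus strand), chr1:218346235-218444619 (TGFB2, plus), chr14:75958099-75982991 (TGFB3, minus), chr2:32946972-33399509 (LTBP1, plus), chr11:65538805-65558930 (LTBP3, minus), chr19:40592883-40629818 (LTBP4, plus), chr11:76657524-76670747 (LRRC32, minus) and chr3:196639686-196662004 (NRROS, plus). Some exons are shared with other genes. TGFB1 shares 215 exon bases (6.64% of its own) with HNRNPUL1 on the opposite strand, NRROS shares 222 (7.63%) with PIGX on the same strand, and TGFB2 shares 1371 with TGFB2-OT1, which had 0 counts in every library. Whether strand was used in counting is not given in the sources used here.

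Before the results, the level of TGFBR3, the gene of the constructs, was checked in every library. In CPM (counts scaled to a common library size by the TMM method), TGFBR3 was at 476, 413 and 457 in S534A, at 574, 522 and 520.4 in S545A, at 259.6, 20.3 and 21.4 in ∆GAG-BG and at 15.9, 259 and 259 in control vector. Libraries 2 and 3 of ∆GAG-BG and libraries 2 and 3 of control vector therefore go against their labels. No library was moved, "∆GAG-BG" and "control vector" below mean the libraries labelled so, and values without these 4 libraries are given beside the differences of the 8 genes and of the other genes named below. Libraries 2 and 3 of S545A, of ∆GAG-BG and of control vector were also far more alike than other pairs within a group. The chi-square of their counts, divided by its degrees of freedom, was 1.40 to 1.99 in these 3 pairs and 17.35 to 77.92 in the other 9. The 3 libraries of such a group may not be 3 independent ones, so the p-values below can be too small. The libraries held 16410001 to 29504297 counts. A count of 0 allows up to 3 counts, or 0.102 to 0.183 CPM, for counting error alone. Libraries ∆GAG-BG replicate 1 and S534A replicate 2 stood apart. HSPA5, an endoplasmic reticulum chaperone, was at 11864 CPM in the first and at 287 CPM in the second, against 1228 to 3906 CPM in the others.

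Epithelial and Müllerian markers were present (KRT7 at 746 to 1140.0 CPM, PAX8 at 193 to 295 CPM), EPCAM was at 0.367 to 1.77 CPM and MUC16 had 0 counts. Of the cells known for LRRC32 and NRROS, CD3E and PF4 had 0 counts, PTPRC was at most 0.0907 CPM and TYROBP at most 0.0342 CPM. GP1BA, a platelet marker, had 12 to 26 counts in every library (0.470 to 1.03 CPM). The myeloid markers CSF1R and ITGAM were at 1.201 and 1.27 CPM in S534A replicate 2, where NRROS was also at 1.27 CPM, and at most 0.343 and 0.194 CPM in the other libraries. The part of such cells in the NRROS counts was not tested. The 6 myeloid markers summed to 0.121 to 2.54 CPM in S534A, 0.444 to 0.581 in S545A, 0.135 to 0.680 in ∆GAG-BG and 0.450 to 0.566 in control vector. The 6 markers of T cells and platelets summed to 0.667 to 1.64 CPM in S534A, 1.22 to 1.40 in S545A, 1.35 to 1.40 in ∆GAG-BG and 0.692 to 1.08 in control vector. Endothelial and fibroblast markers summed to 183 to 460.4 CPM over the 12 libraries, nearly all of it CDH5 (168 to 431 CPM). VWF was at 2.64 to 14.9 CPM, ACTA2 at 7.71 to 11.6, PDGFRB at 0.701 to 5.04, PECAM1 at 0.205 to 0.768 and PDGFRA at most 0.139.

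The first question was which ligands and carriers these cells express. Levels were compared in TPM, which here divides counts by the length of all merged exons of a gene, not by that of a transcript. TGFB1 was the main ligand in every library and LTBP3 and LTBP4 were the main carriers among the 3 that bind latent TGF-β. TGFB1 held 99.4% to 99.6% of the summed ligand TPM. Its level was 176 TPM ± 17.99 (SD, n = 12), and it ranked 966th of 33903 genes with counts. TGFB2, at 0.470 TPM ± 0.196 (SD, n = 12), and TGFB3, at 0.420 ± 0.141 (SD, n = 12), had overlapping ranges and ranked 19408th and 19895th.

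LTBP3 and LTBP4 were at almost the same level in TPM, 80.2 ± 14.7 and 79.7 ± 8.17 (SD, n = 12), and their ranges overlapped. This depends on the merged exon lengths used, 10298 bases for LTBP3 and 8108 for LTBP4. In CPM they were at 192 ± 36.9 and 150 ± 17.2 (SD, n = 12). LTBP1 was at 9.66 TPM ± 3.43 (SD, n = 12), below both in all 12 libraries, and held 3.13% to 10.2% of the summed TPM of these 3 carriers. LTBP2 was at 61.6 TPM ± 14.4 (SD, n = 12), with a mean between those of LTBP4 and LTBP1 and a range that overlapped LTBP3 and LTBP4. The TPM of LTBP1, LTBP3 and LTBP4 together was 0.781 to 1.14 times that of TGFB1, a ratio that also depends on these lengths. NRROS was at 1.82 TPM ± 0.538 (SD, n = 12), and LRRC32 had a count in 3 of 12 libraries.

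**Figure D1:**
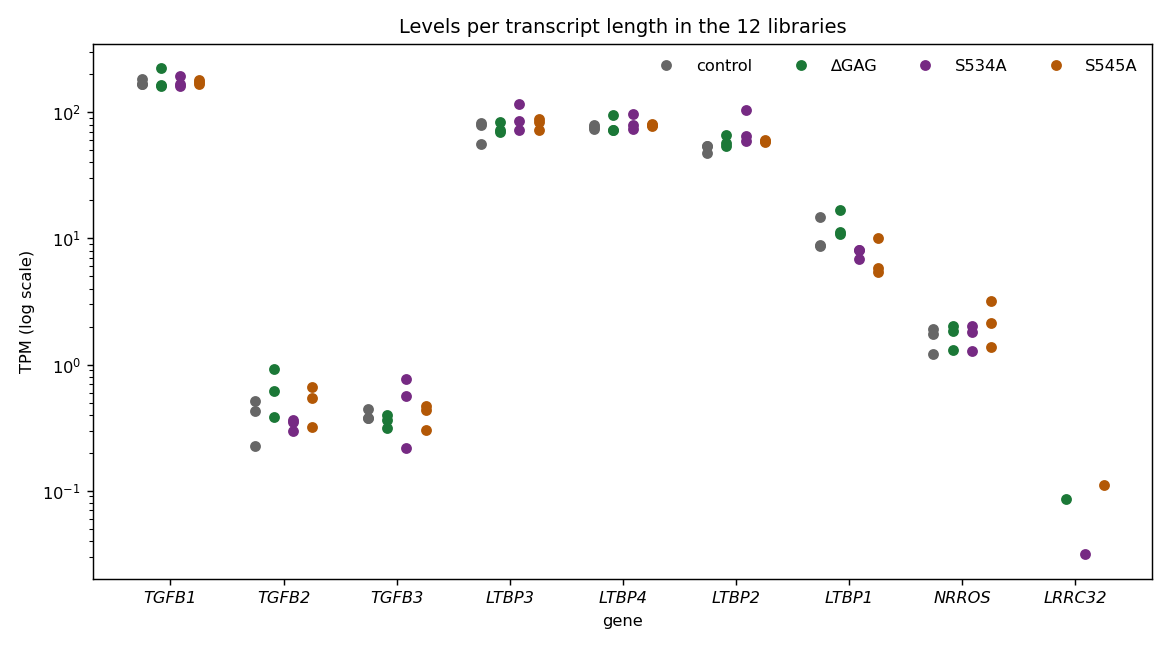
Level in TPM (log axis) of the 8 genes and of LTBP2 in each of the 12 libraries, 1 point per library, colored by group. TGFB1 is above every other gene shown, TGFB2 and TGFB3 lie below 1 TPM, LTBP1 lies below LTBP3 and LTBP4, and LRRC32 has a point only for the 3 libraries with a count.

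The design then asks whether a betaglycan construct and the attachment sites it lacks go with a change in these genes. Of the 8 genes, 7 passed the filter on low counts and LRRC32 did not. By edgeR's quasi-likelihood test with Benjamini-Hochberg adjustment, 0 of 7 had an adjusted p under 0.05 in any of the 6 comparisons of 2 groups, where 0.0% of the 16069 genes tested had. DESeq2 and limma-voom also gave 0 of 7, and over all genes DESeq2 called 0 to 5 per comparison. At an unadjusted p under 0.05, edgeR gave 2 of 7 in S534A versus ∆GAG-BG (TGFB2 and LTBP1; background 2.99%) and 1 of 7 in S545A versus ∆GAG-BG (LTBP1; background 1.1%). It gave 0 of 7 in ∆GAG-BG versus control vector (background 0.871%), S545A versus S534A (4.78%), S534A versus control vector (3.45%) and S545A versus control vector (1.05%). In the test of any difference among the 4 groups LTBP1 alone had an unadjusted p under 0.05 (adjusted p = 1.0; background 1.55%). LTBP1 did not keep this p without the filter on low counts or with the near-alike libraries summed. It also lost this p in 3 of 12 fits that left out a single library. The libraries left out there were S545A replicate 2, S545A replicate 3 and ∆GAG-BG replicate 1. In the fits without this p for LTBP1, 76 to 600 of all genes tested had one. The adjusted p of the 7 genes ran from 0.702 to 1.0 over the 6 comparisons.

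The median log2 fold change of the 7 genes was 0.01 in S534A versus ∆GAG-BG, -0.02 in S545A versus ∆GAG-BG, 0.08 in ∆GAG-BG versus control vector and -0.08 in S545A versus S534A. Over all genes tested it was -0.0027, -0.0066, 0.003 and -0.0002. Comparisons with ∆GAG-BG share its libraries, so their results are not independent.

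**Figure D2:**
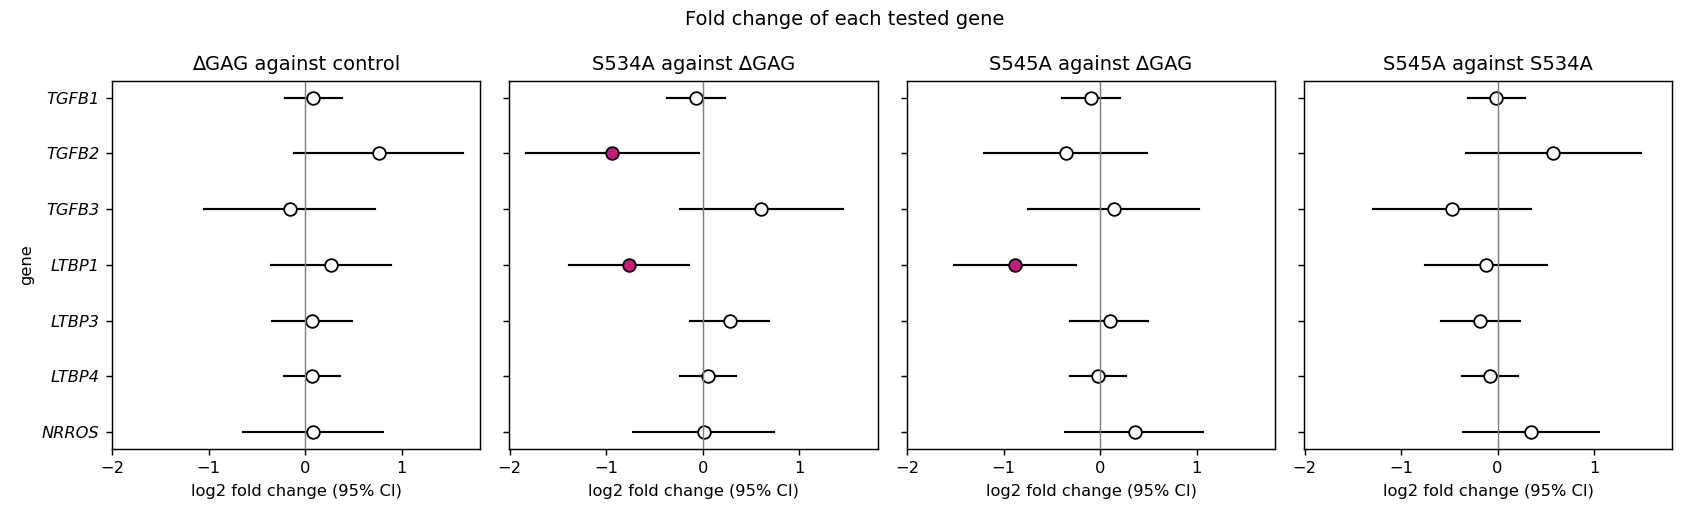
Log2 fold change of the 7 tested genes in 4 comparisons, with 95% confidence intervals from the edgeR model of 12 libraries. Filled points have an unadjusted p under 0.05: LTBP1 in S534A and in S545A versus ∆GAG-BG, and TGFB2 in S534A versus ∆GAG-BG. The intervals of TGFB1 and LTBP4 are the narrowest and all include 0.

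TGFB1 was at 126, 152 and 119 CPM in S534A, at 137, 124 and 129 in S545A, at 171, 124 and 120.4 in ∆GAG-BG and at 141, 125 and 126 in control vector. The groups overlapped throughout, and ∆GAG-BG replicate 1 was the highest library and S534A replicate 3 the lowest, 1.45 times apart. The log2 difference was 0.08 (SE 0.136) in ∆GAG-BG versus control vector, -0.07 (SE 0.136) in S534A versus ∆GAG-BG, -0.09 (SE 0.136) in S545A versus ∆GAG-BG and -0.02 (SE 0.136) in S545A versus S534A, and by edgeR each unadjusted p was above 0.05. All these 95% intervals lay between -0.39 and 0.38. These are RNA levels of whole cultures, in which fewer cells that express a gene and less RNA per cell cannot be told apart. Leaving out libraries 2 and 3 of ∆GAG-BG and control vector leaves 1 library in each and assumes that it varies like the other groups. In ∆GAG-BG the library left is replicate 1, which has the highest TGFB1 and the highest HSPA5. The TGFB1 differences from ∆GAG-BG were then -0.38 (SE 0.160) in S534A and -0.40 (SE 0.160) in S545A. In that fit ∆GAG-BG versus control vector was 0.26 (SE 0.1998) for TGFB1.

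TGFB2 was sparse. It had 10, 13 and 7 counts in S534A, 10, 13 and 23 in S545A, 25, 16 and 10 in ∆GAG-BG and 8, 13 and 13 in control vector. In CPM these were 0.356, 0.434 and 0.425, then 0.388, 0.637 and 0.786, then 1.13, 0.743 and 0.452, then 0.277, 0.613 and 0.509. All S534A libraries were below all ∆GAG-BG libraries, the nearest being 0.434 and 0.452 CPM, and the other groups overlapped.

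By edgeR the log2 difference of TGFB2 in S534A versus ∆GAG-BG was -0.94 (SE 0.412, 95% interval -1.83 to -0.04, p = 0.0421, adjusted p = 0.890), beside an exact permutation p = 0.1 for the CPM, the smallest that 3 against 3 allows. This difference did not hold its unadjusted p under 0.05 with DESeq2, with limma-voom, with the replicate number as a block or without any 1 of 7 single libraries. It was smallest, at -0.56, without ∆GAG-BG replicate 1. The other differences of TGFB2 were -0.35 (SE 0.388) in S545A versus ∆GAG-BG, 0.58 (SE 0.418) in S545A versus S534A and 0.76 (SE 0.403) in ∆GAG-BG versus control vector, all with intervals that included 0. Without libraries 2 and 3 of ∆GAG-BG and control vector, the last became 2.00 (SE 0.615, adjusted p = 0.467 by edgeR), from 1 library with 25 counts and 1 with 8, and that of S534A versus ∆GAG-BG became -1.48 (SE 0.459, adjusted p = 0.318). S545A versus ∆GAG-BG was then -0.90 (SE 0.447).

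TGFB3 was as sparse as TGFB2, with 18, 27 and 4 counts in S534A, 14, 10 and 10 in S545A, 8, 9 and 10 in ∆GAG-BG and 15, 9 and 11 in control vector. The widest spread was within S534A, which held both the highest library (0.901 CPM) and the lowest (0.243 CPM), and all groups overlapped. The log2 difference was 0.61 (SE 0.389) in S534A versus ∆GAG-BG, 0.14 (SE 0.408) in S545A versus ∆GAG-BG, -0.47 (SE 0.376) in S545A versus S534A and -0.16 (SE 0.406) in ∆GAG-BG versus control vector, and by edgeR each unadjusted p was above 0.05. The intervals reached 1.46 and -1.29, so a 2-fold change of TGFB3 in either direction could be missed at this depth. Without S534A replicate 3, the shallowest library, the differences were 0.91 in S534A versus ∆GAG-BG and -0.76 in S545A versus S534A, both with an unadjusted p under 0.05 (adjusted p = 0.453 and adjusted p = 0.305). In that fit 10.8% and 15.8% of all genes had one. Without S534A replicate 2, the highest library, TGFB3 had no such p in either comparison, where 312 and 285 of 16210 genes had one. The TGFB3 differences with libraries 2 and 3 of ∆GAG-BG and control vector left out were 0.78 (SE 0.714) in S534A versus ∆GAG-BG, 0.32 (SE 0.730) in S545A versus ∆GAG-BG and -0.53 (SE 0.847) in ∆GAG-BG versus control vector.

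LTBP1, which joins latent TGF-β to the matrix, was lower in both S534A and S545A than in ∆GAG-BG as labelled. It was at 13.7, 14.2 and 11.5 CPM in S534A, at 17.4, 9.06 and 9.81 in S545A, at 29.3, 19.3 and 18.3 in ∆GAG-BG and at 25.5, 15.1 and 14.8 in control vector. All 3 ∆GAG-BG libraries were above all 6 of S534A and S545A, the nearest being 18.3 and 17.4 CPM. The 3 control vector libraries lay above those of S534A and overlapped both S545A and ∆GAG-BG. Libraries 2 and 3 of control vector, at 15.1 and 14.8 CPM, have TGFBR3 at the level of ∆GAG-BG replicate 1. With these in place of libraries 2 and 3 of ∆GAG-BG, the group would lie above S534A but overlap S545A. Libraries 2 and 3 of ∆GAG-BG have TGFBR3 near the low level of control vector replicate 1. With the exchange made both ways, control vector would hold 25.5, 19.3 and 18.3 CPM, above all of S534A and S545A. ∆GAG-BG would hold 29.3, 15.1 and 14.8 CPM. Whether libraries were exchanged was not tested. In S545A, ∆GAG-BG and control vector, replicate 1 was the highest library of its group.

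The log2 difference of LTBP1 was -0.76 in S534A versus ∆GAG-BG, that is 0.59 times the level (SE 0.286, 95% interval -1.39 to -0.14, p = 0.0212 and adjusted p = 0.890 by edgeR, exact permutation p = 0.1). In S545A versus ∆GAG-BG it was -0.88, 0.54 times the level (SE 0.287, 95% interval -1.51 to -0.25, p = 0.0100 and adjusted p = 1.0 by edgeR, exact permutation p = 0.1). A permutation p of 0.1 is the smallest that 3 against 3 allows, and neither difference held after adjustment over all genes. S545A and S534A differed by -0.12 (SE 0.288, 95% interval -0.75 to 0.51), and ∆GAG-BG and control vector by 0.27 (SE 0.282, 95% interval -0.35 to 0.89).

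Because the groups as labelled did not overlap, any matching of libraries gives LTBP1 a lower level in S534A and S545A than in ∆GAG-BG. By replicate number, the log2 ratio of LTBP1 in S534A over ∆GAG-BG was -1.10, -0.44 and -0.67 for libraries 1, 2 and 3, and that in S545A over ∆GAG-BG was -0.75, -1.09 and -0.90. ∆GAG-BG over control vector gave 0.20, 0.35 and 0.30, and S545A over control vector -0.55, -0.74 and -0.60. The numbers were taken as pairs only for S545A and control vector, where same-numbered libraries deviated together across all genes. There, the block on the number in a model of these 2 groups gave LTBP1 a log2 difference of -0.62 (SE 0.0743, adjusted p = 0.00065 by edgeR) in a fit where 2.54% of 15616 genes had an adjusted p under 0.05 and 17.5% an unadjusted p under 0.05. With the block in the model of 4 groups it was -0.62 (SE 0.162, adjusted p = 1.0), and without the block -0.61 (SE 0.286, adjusted p = 1.0). Libraries 2 and 3 of both these groups are the near-alike ones, so the 3 numbers are not 3 independent pairs. The adjusted p of the block in 2 groups can be too small for that reason. Libraries 2 and 3 of control vector also go against their label.

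Some single libraries bear on the LTBP1 values. Without ∆GAG-BG replicate 1 the differences from ∆GAG-BG were -0.51 (SE 0.292) in S534A and -0.63 (SE 0.291) in S545A, and without S534A replicate 3 that of S534A was -0.67 (SE 0.324), each no longer with an unadjusted p under 0.05. ∆GAG-BG replicate 1 has the highest HSPA5 and the highest summed level of 5 endoplasmic reticulum chaperones (15992 CPM against 2264 and 2333 in its group), and it alone in its group has raised TGFBR3. The part of the chaperones in the LTBP1 difference was not tested.

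Without libraries 2 and 3 of ∆GAG-BG and control vector, the LTBP1 difference was -1.16 (SE 0.329, adjusted p = 0.288 by edgeR) in S534A and -1.28 (SE 0.328, adjusted p = 0.588) in S545A from the 1 library left in ∆GAG-BG. From the 1 library left in control vector, it was -0.97 (SE 0.330) in S534A and -1.09 (SE 0.329) in S545A. All 4 had an unadjusted p under 0.05. Over all genes in that fit, 11.1% had one in S534A versus ∆GAG-BG, 5.36% in S545A versus ∆GAG-BG, 1.89% in S534A versus control vector and 3.49% in S545A versus control vector, besides 9.07% in ∆GAG-BG versus control vector, where LTBP1 was at 0.19 (SE 0.420). The 1 library left in ∆GAG-BG is replicate 1, the library that stands apart and has the highest LTBP1, so these values add no independent support, and none held after adjustment.

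**Figure D3:**
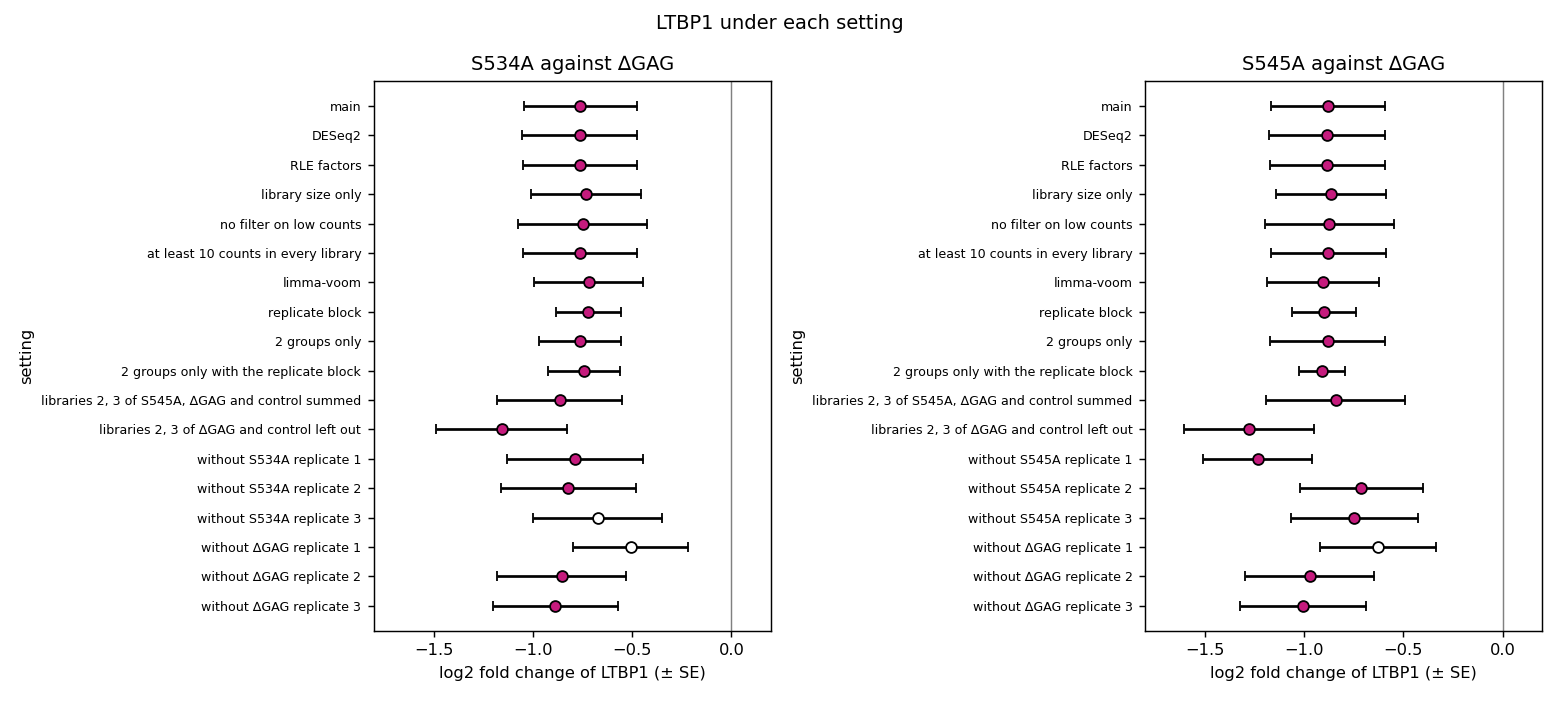
Log2 fold change of LTBP1 (± SE) in S534A and in S545A versus ∆GAG-BG under each way of processing the counts and with each library of the 2 groups left out. Filled points have an unadjusted p under 0.05. Every point lies below 0, and the open points are the fits without ∆GAG-BG replicate 1 and, for S534A, without S534A replicate 3.

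LTBP3 was at 170.5, 290 and 200.1 CPM in S534A, at 175, 208 and 199 in S545A, at 206, 173 and 166 in ∆GAG-BG and at 137, 194 and 189 in control vector. S534A replicate 2 was the highest library and control vector replicate 1 the lowest, and all groups overlapped. The log2 difference was 0.28 (SE 0.187) in S534A versus ∆GAG-BG, 0.10 (SE 0.187) in S545A versus ∆GAG-BG, -0.18 (SE 0.187) in S545A versus S534A and 0.07 (SE 0.187) in ∆GAG-BG versus control vector, and by edgeR each unadjusted p was above 0.05. Without S534A replicate 1, the LTBP3 difference in S534A versus ∆GAG-BG was 0.43 (SE 0.184, adjusted p = 0.817), with an unadjusted p under 0.05, as had 5.4% of all genes. Without S534A replicate 2, the highest library, LTBP3 had no such p there, beside 312 of 16210 genes that had one. The LTBP3 differences with libraries 2 and 3 of ∆GAG-BG and control vector left out were 0.09 (SE 0.269) in S534A versus ∆GAG-BG, -0.09 (SE 0.266) in S545A versus ∆GAG-BG and 0.57 (SE 0.328) in ∆GAG-BG versus control vector. In S534A versus control vector, LTBP3 was then at 0.67 (SE 0.278, adjusted p = 1.0), and with the 2 groups only and the replicate block at 0.32 (SE 0.120, adjusted p = 0.861), both with an unadjusted p under 0.05. The share of all genes under 0.05 was 1.73% in that block fit. LTBP3 did not show the lower level in S534A and S545A that LTBP1 showed.

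LTBP4 was at 138, 188 and 146 CPM in S534A, at 148, 147 and 152 in S545A, at 183, 135 and 136 in ∆GAG-BG and at 141, 147 and 143 in control vector. Its highest libraries, S534A replicate 2 and ∆GAG-BG replicate 1, are also the highest 2 for TGFB1. The log2 difference was 0.06 (SE 0.133) in S534A versus ∆GAG-BG, -0.02 (SE 0.133) in S545A versus ∆GAG-BG, -0.08 (SE 0.133) in S545A versus S534A and 0.07 (SE 0.133) in ∆GAG-BG versus control vector, with 95% intervals between -0.37 and 0.36. With the same 4 libraries left out, LTBP4 was at -0.22 (SE 0.178) in S534A versus ∆GAG-BG, -0.30 (SE 0.177) in S545A versus ∆GAG-BG and 0.36 (SE 0.221) in ∆GAG-BG versus control vector.

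**Figure D4:**
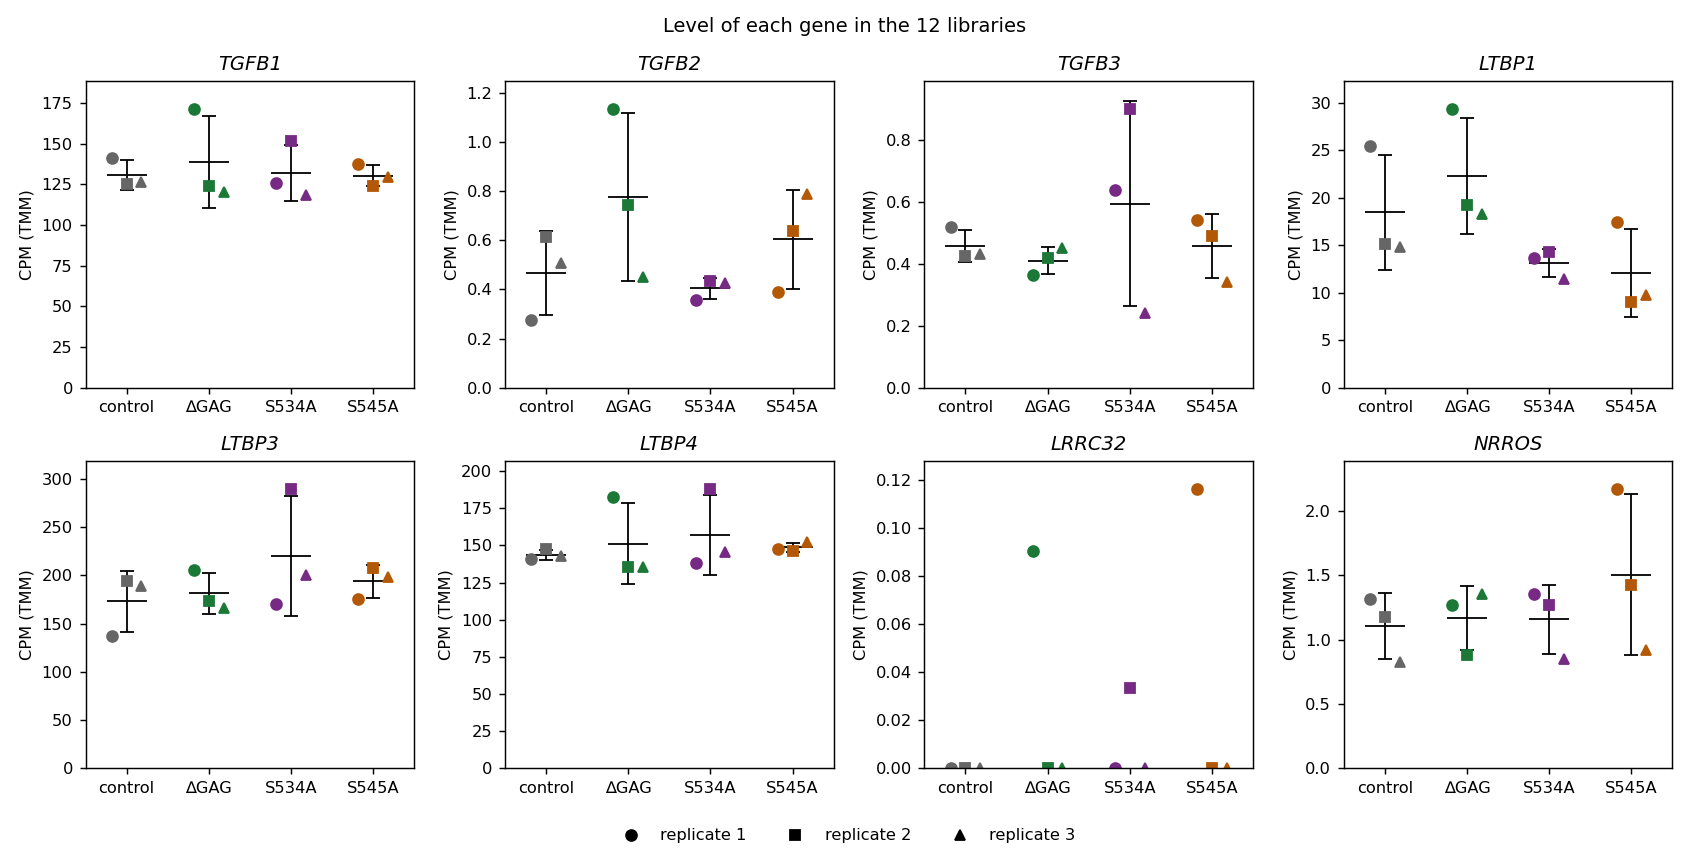
TMM-scaled CPM of each of the 8 genes by group, 1 point per library, with the mean and SD of 3 libraries (no mean is drawn for LRRC32, whose counts were at most 3). LTBP1 in ∆GAG-BG lies above S534A and S545A with no overlap, and the groups overlap in TGFB1, TGFB3, LTBP3, LTBP4 and NRROS.

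LRRC32, which anchors latent TGF-β on regulatory T cells and platelets, had 6 counts in all: 1 in S534A replicate 2, 3 in S545A replicate 1 and 2 in ∆GAG-BG replicate 1. The other 9 libraries had 0, which allows up to 0.102 to 0.183 CPM. No fold is given. NRROS was low but present in every library, with 38, 38 and 14 counts in S534A, 56, 29 and 27 in S545A, 28, 19 and 30 in ∆GAG-BG and 38, 25 and 21 in control vector. The highest library was S545A replicate 1 at 2.17 CPM, and the groups overlapped. Its log2 difference was 0.01 (SE 0.333) in S534A versus ∆GAG-BG, 0.36 (SE 0.329) in S545A versus ∆GAG-BG, 0.35 (SE 0.325) in S545A versus S534A and 0.08 (SE 0.337) in ∆GAG-BG versus control vector, and by edgeR each unadjusted p was above 0.05. In the fit that leaves out libraries 2 and 3 of ∆GAG-BG and control vector, NRROS was at -0.11 (SE 0.515), 0.24 (SE 0.514) and -0.07 (SE 0.618) in S534A versus ∆GAG-BG, S545A versus ∆GAG-BG and ∆GAG-BG versus control vector.

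Groups that did not overlap in CPM were counted next. Of the 7 genes this held for 2 in S534A versus ∆GAG-BG (TGFB2 and LTBP1; background 5.66%), 1 in S545A versus ∆GAG-BG (LTBP1; 5.05%) and 1 in S534A versus control vector (LTBP1; 7.65%). It held for 0 in ∆GAG-BG versus control vector (4.87%), S545A versus S534A (10.1%) and S545A versus control vector (8.82%).

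The other genes of the pathway were taken from a list of 46 genes for ligand processing, activation, matrix anchoring, reception and direct response, of which 40 were tested. None had an adjusted p under 0.05 by edgeR in any comparison. At an unadjusted p under 0.05, 0 of 40 were higher and 2 lower in S534A versus ∆GAG-BG (2.99% of all genes in either direction), 1 was higher and 1 lower in S545A versus ∆GAG-BG (1.1%) and 1 was higher in ∆GAG-BG versus control vector (0.871%). In S545A versus S534A 2 of 40 were lower (4.78%), in S534A versus control vector 6 of 40 were higher (3.45%), and in S545A versus control vector 0 of 40 had such a p (1.05%). The median log2 fold change of the 40 genes ran from -0.11 to 0.12 over these comparisons.

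Of the processing proteases, FURIN, which cuts the propeptide from the ligand, was at 53.6 to 67.3 CPM. None of the 4 proprotein convertases on the list had a p under 0.05 in any comparison, and the sparsest, PCSK6, ran from 0.226 to 0.683 CPM. Among the activators, ITGAV, the αv integrin chain that binds the RGD motif shown above, was at 195 to 239.9 CPM and THBS1, a matrix activator of TGF-β, at 42.3 to 72.5. The αv partners best known for binding latent TGF-β were sparse, with ITGB6 at 0.243 to 1.27 CPM and ITGB8 at 0.178 to 0.858. The other integrin β chains on the list were higher, with ITGB1 at 1017 to 1135 CPM, ITGB5 at 151 to 288 and ITGB3 at 15.05 to 20.9. Of 13 activators tested, ITGB3 was lower in S534A than in ∆GAG-BG (16.3 against 19.7 CPM, log2 difference -0.28, SE 0.0961, adjusted p = 0.890 by edgeR), and at -0.23 (SE 0.16) without libraries 2 and 3 of ∆GAG-BG and control vector. MMP9 was higher in S534A than in control vector (1.78 against 0.392 CPM, log2 difference 2.23, SE 0.978, adjusted p = 0.871). MMP9 was at 4.40 CPM in S534A replicate 2 and at most 1.59 CPM in the other libraries, and without that library its difference was 0.37 (SE 0.90). It was 1.91 (SE 1.61) with libraries 2 and 3 of ∆GAG-BG and control vector left out.

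The matrix anchors held the gene with the smallest p of the list. FN1, fibronectin, the fiber on which LTBP1 is laid down, was at 493, 321 and 430.2 CPM in S534A, at 651, 494 and 488 in S545A, at 1412, 829.8 and 896 in ∆GAG-BG and at 1035, 434 and 437 in control vector. As with LTBP1, the ∆GAG-BG libraries were above all of S534A and S545A. Libraries 2 and 3 of control vector, with TGFBR3 at the level of ∆GAG-BG replicate 1, had FN1 within the range of S534A. With these in place of libraries 2 and 3 of ∆GAG-BG, the group would overlap both S534A and S545A. Control vector would then hold 1035, 829.8 and 896 CPM, above all of S534A and S545A. The log2 difference of FN1 was -1.33 in S534A versus ∆GAG-BG (SE 0.335, p = 0.00200 and adjusted p = 0.890 by edgeR, exact permutation p = 0.1) and -0.94 in S545A versus ∆GAG-BG (SE 0.332, p = 0.0156 and adjusted p = 1.0 by edgeR, exact permutation p = 0.1). Without ∆GAG-BG replicate 1 these were -1.05 (adjusted p = 0.891) and -0.66 (adjusted p = 0.942), the second no longer with an unadjusted p under 0.05. Without libraries 2 and 3 of ∆GAG-BG and control vector they were -1.77 and -1.38. The 1 library left in ∆GAG-BG is replicate 1, which has the highest FN1 and the highest HSPA5, so these values add no independent support. FN1 and LTBP1 had a Pearson r of 0.804 over the 12 libraries, which share their depth and the libraries that stand apart. LTBP1 and TGFBR3 had r = -0.594 over the same libraries. Both pairs were chosen after their values were seen.

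**Figure D5:**
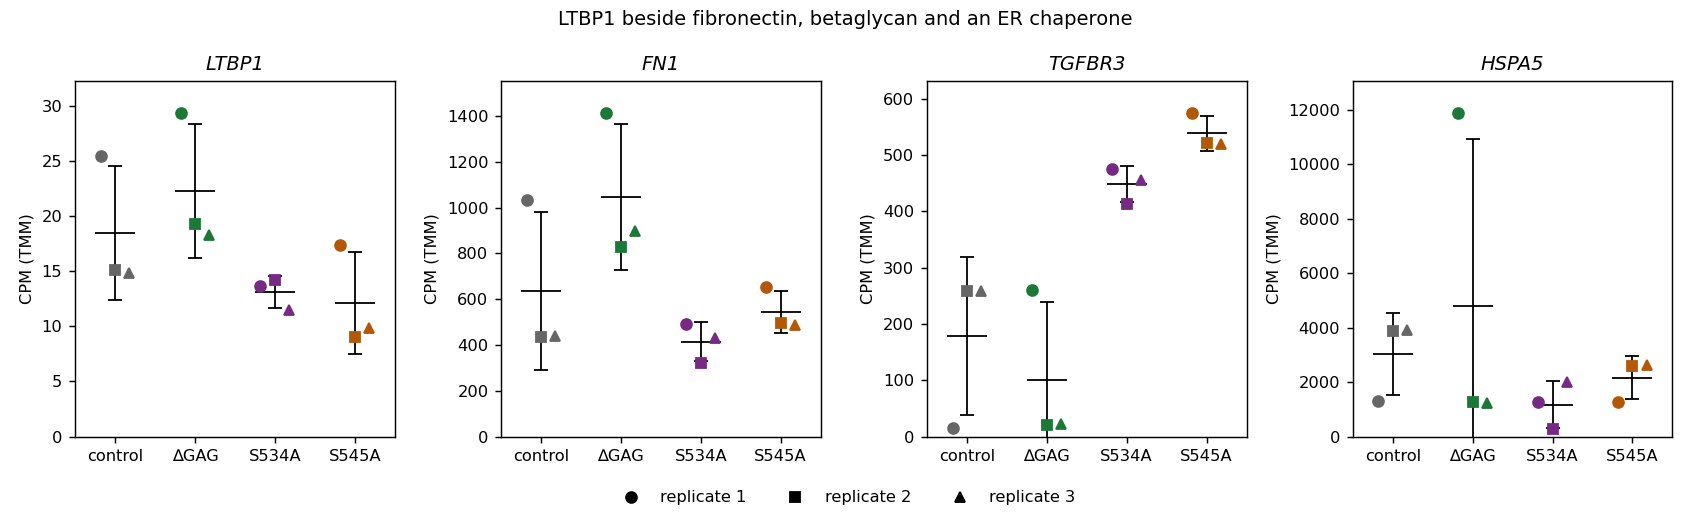
CPM of LTBP1, FN1, TGFBR3 and HSPA5 by group, 1 point per library, with the mean and SD of 3 libraries. LTBP1 and FN1 have their highest group mean and their highest library in ∆GAG-BG, TGFBR3 is low in control vector replicate 1 and in ∆GAG-BG replicates 2 and 3, and HSPA5 is highest in ∆GAG-BG replicate 1.

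FBN1, the fibrillin to which LTBPs bind, was at 34.1 to 64.6 CPM and had no p under 0.05, and LTBP2 was at 103 to 228 CPM. LTBP2 was higher in S534A than in control vector (162 against 109.9 CPM, log2 difference 0.56, SE 0.187, adjusted p = 0.871 by edgeR), and the difference was 0.23 (SE 0.10) without S534A replicate 2 and 0.64 (SE 0.32) without libraries 2 and 3 of ∆GAG-BG and control vector. EMILIN1, a matrix protein that keeps TGF-β precursors from being cut, was sparse, at 0.104 to 0.701 CPM. Its log2 difference was 1.35 (SE 0.548, adjusted p = 1.0) in ∆GAG-BG versus control vector and 1.79 (SE 0.513, adjusted p = 0.871) in S534A versus control vector. These were 1.91 (SE 1.01) and 2.24 (SE 0.84) without libraries 2 and 3 of ∆GAG-BG and control vector.

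Of the receptors, TGFBR2, which binds the ligand, was at 484 to 692 CPM in every group with no p under 0.05. TGFBR3 itself was higher in S545A than in ∆GAG-BG (log2 difference 2.42, SE 1.02, adjusted p = 1.0 by edgeR), and by 1.05 (SE 0.15, adjusted p = 0.224) without libraries 2 and 3 of ∆GAG-BG and control vector. Of the 6 direct TGF-β targets, 0 had an unadjusted p under 0.05 in either mutant versus ∆GAG-BG, 2 were lower in S545A versus S534A (4.78% of all genes in either direction) and 3 were higher in S534A versus control vector (3.45%). TGFBI and PMEPA1 were lower in S545A than in S534A (log2 differences of -1.60 and -0.90, adjusted p = 0.702 for both by edgeR). TGFBI (1.54), SMAD7 (0.96) and PMEPA1 (0.91) were higher in S534A than in control vector (adjusted p = 0.871 for each). All these rest on S534A replicate 2. TGFBI was at 1763 CPM there and at 179 to 471 CPM in the other libraries, SMAD7 at 21.0 and at 5.22 to 7.94 CPM, and PMEPA1 at 73.3 and at 18.5 to 27.4 CPM. Without that library, S534A versus control vector was 0.08 (SE 0.47) for TGFBI, 0.06 (SE 0.15) for SMAD7 and 0.05 (SE 0.17) for PMEPA1, and S545A versus S534A was -0.14 (SE 0.47) for TGFBI and -0.05 (SE 0.17) for PMEPA1. With it but without libraries 2 and 3 of ∆GAG-BG and control vector, S534A versus control vector was 1.14 (SE 1.12), 1.01 (SE 0.72) and 0.78 (SE 0.69) for TGFBI, SMAD7 and PMEPA1.

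The genes whose log2 CPM followed each ligand most closely over the 12 libraries were RPS6 and TNFRSF10B for TGFB1 (Pearson r of 0.981 and 0.966), CENPV, ZMYM5 and CCDC112 for TGFB2 (0.942, 0.921 and 0.920), and PSMA1, WRAP73 and WDR83 for TGFB3 (0.940, 0.937 and 0.928). For LTBP1, added after its values were seen, they were FAM168B, DIS3 and FAM20C (0.900, 0.897 and 0.895). These are descriptions over libraries that share depth and composition, and those of TGFB2 and TGFB3 rest on 4 to 27 counts per library. Among the genes themselves, TGFB1 and LTBP4 were the most alike (r = 0.825), followed by LTBP3 and LTBP4 (0.770), and LTBP1 had r = -0.393 with LTBP3 and 0.155 with LTBP4.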

How the data were processed

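RNA-seq counts of 12 HEYA8 libraries in 4 groups of 3 were used. Raw counts of reads per gene, with no normalization, were deposited in a single table. The submitters' processing notes name FastQC, Trim Galore 0.4.5, STAR 2.4, SAMtools 1.2 and featureCounts, with a mouse build (mm10), but the gene spans of the table are human: 36113 of 56269 symbols were found in GENCODE 29 (GRCh38), 33622 with the same span, all 8 genes described here included. Strand use in counting is not given in the sources used here. S545A replicate 3 is titled S545S, and its genotype label was used.

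Genes were filtered by filterByExpr (minimum count 10), scaled by TMM and fitted with the robust quasi-likelihood model of edgeR 4.0.16 (R 4.3.3), 4 groups in 1 model, with Benjamini-Hochberg adjustment over 16069 genes and 8 residual degrees of freedom. Beside it stands an exact permutation test (two-sided, on log2(CPM + 1)), whose smallest p is 0.1. CPM are on TMM-scaled totals, TPM use the merged exon lengths of the table, and correlations use log2(CPM + 0.5). The scripts were tested on simulated data.

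The members and lists were chosen with earlier results of these data known. All 8 genes are named in every library. Other pathway genes are named with an unadjusted p under 0.05, up to 4 per comparison in order of p, besides genes given by level and, for each ligand, the genes most alike in pattern. A gene of each of these last kinds is not reported here. HSPA5 and MMP9 were named after their values were seen. Alternatives were DESeq2 1.42.0, limma-voom (limma 3.58.1), RLE factors, library size only, other filters, a model of the compared groups alone, a block on the replicate number, each library left out, libraries 2 and 3 summed (S545A, ∆GAG-BG, control vector) or left out (∆GAG-BG, control vector). The block within 2 groups was added after seeing the data. No batch is given by the labels or the paper. The numbers were taken as pairs for S545A and control vector, only because deviations of same-numbered libraries correlated there (0.688, 0.411 and 0.408). In the other comparisons at least 1 correlation was not above 0.1.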

Additional observations from a re-analysis of the deposited data

How the results depend on the processing

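Of 466 recomputed log2 fold changes (28 values), 411 kept their direction and their side of a p of 0.05, 12 were no longer under 0.05, 8 came under it and 35 changed sign. The values that changed sign were at most 0.36 in size, and 0 of the 35 had a p under 0.05. The number of genes with an adjusted p under 0.05 was 0 throughout, except 1 (LTBP1) in S545A versus control vector with the 2 groups only and the replicate block. The 3 pairs of that fit are not independent. For unadjusted p the number in S534A versus ∆GAG-BG was 2, where 2.99% of all genes had one. It was 1 with DESeq2, limma-voom, at least 10 counts in every library and the replicate block (4 groups or 2 groups). In those fits 191 to 533 of all genes tested had one. With single libraries left out the number was 0 to 2, where at most 10.8% of all genes had one. No such numbers are given without libraries 2 and 3 of ∆GAG-BG and control vector, a fit with 1 library left in each. TGFB2 could not be tested with at least 10 counts in every library. In S545A versus ∆GAG-BG (1) it was 0 to 1 with single libraries left out, where 121 to 921 of all genes had one. In ∆GAG-BG versus control vector (0) it was 1 with the block in 2 groups, beside 91 of 15211 genes. In S545A versus S534A it was 0 to 1 with single libraries left out, where at most 15.8% of all genes had one. In S534A versus control vector (0) it was 1 with the replicate block, beside 575 of 16069 genes. With the block in 2 groups it was 2 (LTBP1 and LTBP3), where 1.73% of all genes had one. In S545A versus control vector (0) it was 1 with DESeq2, limma-voom or the replicate block, beside 111 to 197 of 16069 genes. It was 2 with the block in 2 groups (LTBP1 and LTBP3), a fit where 17.5% of all genes had such a p. In each of the 3 comparisons with control vector it was 0 to 1 with single libraries left out, where 104 to 1953 of all genes had one. With the replicate block in 4 groups LTBP1 was at -0.72 (SE 0.1625) in S534A and -0.90 (SE 0.1626) in S545A versus ∆GAG-BG, where the libraries share only a number. The cause of these changes was not tested.

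Signs changed as follows. Without libraries 2 and 3 of ∆GAG-BG and control vector, LTBP4 was at -0.22 and NRROS at -0.11 in S534A versus ∆GAG-BG, LTBP3 at -0.09 in S545A versus ∆GAG-BG and NRROS at -0.07 in ∆GAG-BG versus control vector. With libraries 2 and 3 summed, LTBP4 was at -0.02 and NRROS at -0.01 in S534A versus ∆GAG-BG, and TGFB1 at 0.01 and LTBP1 at 0.03 in S545A versus S534A. With the replicate block NRROS was at -0.03 in S534A versus ∆GAG-BG. With single libraries left out, the ranges in ∆GAG-BG versus control vector were -0.11 to 0.17 (TGFB1), -0.08 to 0.16 (LTBP3), -0.09 to 0.15 (LTBP4) and -0.10 to 0.24 (NRROS). In S534A versus ∆GAG-BG they were -0.18 to 0.11 (TGFB1), -0.09 to 0.22 (LTBP4) and -0.15 to 0.17 (NRROS). In S545A versus ∆GAG-BG they were -0.18 to 0.10 (TGFB1), -0.63 to 0.03 (TGFB2), 0.00 to 0.33 (TGFB3), -0.10 to 0.14 (LTBP4) and -0.01 to 0.63 (NRROS). In S545A versus S534A they were -0.09 to 0.10 (TGFB1), -0.47 to 0.05 (LTBP1), -0.33 to 0.07 (LTBP3), -0.16 to 0.07 (LTBP4) and -0.03 to 0.62 (NRROS). Depth limits TGFB2, TGFB3 and LRRC32, with at most 27 counts per library.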
